A study of Mus musculus with 2 samples.

Results

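The miR-30 microRNAs of mouse lung were examined in animals left untreated or given monocrotaline (MCT). This plant toxin damages lung vessels and is used to produce pulmonary arterial hypertension in rodents. The family was followed through 8 array probes, 5 for 5p arms (mmu-miR-30a-5p, mmu-miR-30b-5p, mmu-miR-30c-5p, mmu-miR-30d-5p and mmu-miR-30e-5p) and 3 for 3p arms (mmu-miR-30a-3p, mmu-miR-30b-3p and mmu-miR-30e-3p, written without the species prefix below), taken by name from 1141 mouse microRNA probes. Each probe had 3 repeat spots. The study held 2 lung samples of wild-type (WT) mice, 1 array per group. The untreated sample had no treatment. The MCT sample came from mice that were 14 weeks old and were given MCT for 30 days. The age of the untreated mice, the dose of MCT and the number of mice behind each sample are not stated in the sources used here. With 1 array per group the difference could not be tested, and no p-value is given. Values after ± are standard deviations (SD) over the 3 repeat spots of an array, or for a ratio the root of the summed squares of both, and cover the spread within arrays but not between mice.

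A microRNA hairpin is cut into a duplex of a 5p and a 3p arm, and one arm is usually kept by Argonaute as the guide that pairs with target mRNAs through its seed, bases 2 to 8. In the miR-30 family the 5p arm is the usual guide, while the 3p arms have other seeds. The family is abundant in lung and kidney epithelium and in endothelium. Its 5p seed is known to repress Snai1, a driver of epithelial-mesenchymal transition, the matrix gene Ctgf and the Notch ligand Dll4.

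The sequences are shown because the arms and the paralogues that the probes must tell apart differ by few bases. Mature sequences are from RefSeq (GRCm38.p6), 5′ to 3′, with the seed in capitals, and 5 of the 8 members matched an entry by name.
miR-30a-5p: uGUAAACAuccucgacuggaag
miR-30c-5p: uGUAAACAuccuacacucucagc
miR-30e-5p: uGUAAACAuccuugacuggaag
miR-30a-3p: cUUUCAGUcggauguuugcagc
miR-30e-3p: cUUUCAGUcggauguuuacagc
miR-30c-2-3p: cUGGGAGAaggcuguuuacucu
All 5 of the 5p targets on the array carried the seed GUAAACA. Counted from 1 at the 5′ end, miR-30e-5p differs from miR-30a-5p by the substitution C13U alone, and miR-30e-3p differs from miR-30a-3p by G18A alone. miR-30d-5p also differs from miR-30a-5p at 1 position. miR-30b-5p and miR-30c-5p differ from miR-30a-5p at 7 and 5 positions, all from position 13 on. The probes for these targets are open to cross-hybridization, which was not tested.

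The hairpins of the a and e paralogues show how the arms face each other, with both mature arms in capitals. Mir30a lies at chr1:23272269-23272339 (+ strand) and Mir30e at chr4:120772606-120772697 (- strand) of GRCm38.p6.
Mir30a: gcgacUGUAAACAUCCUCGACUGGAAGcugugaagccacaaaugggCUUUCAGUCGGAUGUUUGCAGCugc
Mir30e: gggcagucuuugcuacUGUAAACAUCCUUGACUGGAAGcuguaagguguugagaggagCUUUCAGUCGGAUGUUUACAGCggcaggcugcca
The family genes lie in pairs. Mir30a is 19361 bp from Mir30c-2 on chromosome 1. Mir30e is 2983 bp from Mir30c-1 on chromosome 4, and both fall within the bounds of Nfyc, which encodes a subunit of the transcription factor NF-Y. Mir30b and Mir30d are neighbours on chromosome 15. Mature miR-30c-5p has the same sequence from Mir30c-1 and Mir30c-2, so its probe reads both genes together.

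The arrays differed in background, which touches the dim 3p probes. Empty spots had a median intensity of 101 on the array of untreated lung and 253 on that of MCT-treated lung, and 66.6% of microRNA spots on the MCT array read below its empty spots' median, against 40.0% on the untreated array. A probe was called detected where at least 2 of its 3 spots exceeded the 95th percentile of the empty spots of that array, which was 116 for untreated and 284 for MCT. On this rule 310 microRNAs were detected on both arrays and 409 on at least 1. Of the tissue markers, the endothelial miR-126-3p and the smooth muscle miR-145-5p were detected on both arrays, as were 5 of 6 epithelial microRNAs on the untreated and 6 of 6 on the MCT array. The brain markers miR-124-3p and miR-9-5p were detected on neither. The liver marker miR-122-5p was barely above the limit in untreated lung, at a mean intensity of 118, and not detected in the MCT sample. The heart markers miR-208a-3p, miR-208b-3p and miR-499-5p were not detected either, whereas miR-1a-3p and miR-133a-3p, of heart and skeletal muscle, were on both.

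The 5p arms of miR-30a, miR-30b, miR-30c and miR-30d were among the bright probes of both arrays, miR-30e-5p was dimmer, and the 3p arms lay near background. As deposited, the spots of miR-30a-5p, which in human cells restrains the autophagy gene BECN1, read 16275, 16721 and 16383 in untreated lung and 24907, 24313 and 23647 in MCT-treated lung. Those of miR-30c-5p, known in rodent heart cells to repress Ctgf, read 15090, 15278 and 15129 against 26888, 25791 and 24863. Within each array the spots of a probe lay close together.

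miR-30b-5p, which carries the family's seed and shares its genomic neighbourhood with miR-30d, read 14483, 14870 and 14631 in untreated and 26089, 25050 and 24083 in MCT-treated lung. miR-30d-5p read 13279, 13890 and 13981 against 22015, 21387 and 20820. miR-30e-5p read 2037, 2098 and 2174 against 6205, 5973 and 5815. The unscaled spots of these probes were higher on the MCT array, whose empty spots also read higher (median 253 against 101). The same held for miR-30c-1-3p and miR-30d-3p, which were detected on neither array, so the lack of overlap says little. The step between arrays was widest for miR-30e-5p, with mean intensities 2.85 times higher in MCT, against 1.48 to 1.71 times for the other 5p arms. Brightness of different probes is not an order of abundance, since probes differ in affinity.

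The unscaled intensities include a difference between the arrays as a whole that changed with brightness. Among microRNAs detected on both, the median ratio of MCT to untreated intensity was 2.47 for the 158 under 500 in untreated lung, 2.19 for the 107 from 500 to 5000 and 1.41 for the 45 above 5000. The miR-30a, miR-30b, miR-30c and miR-30d 5p arms belong to the brightest of these classes and miR-30e-5p to the middle one. All 5 were thus above the median of their class, by a small margin for miR-30a-5p.

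**Figure D1:**
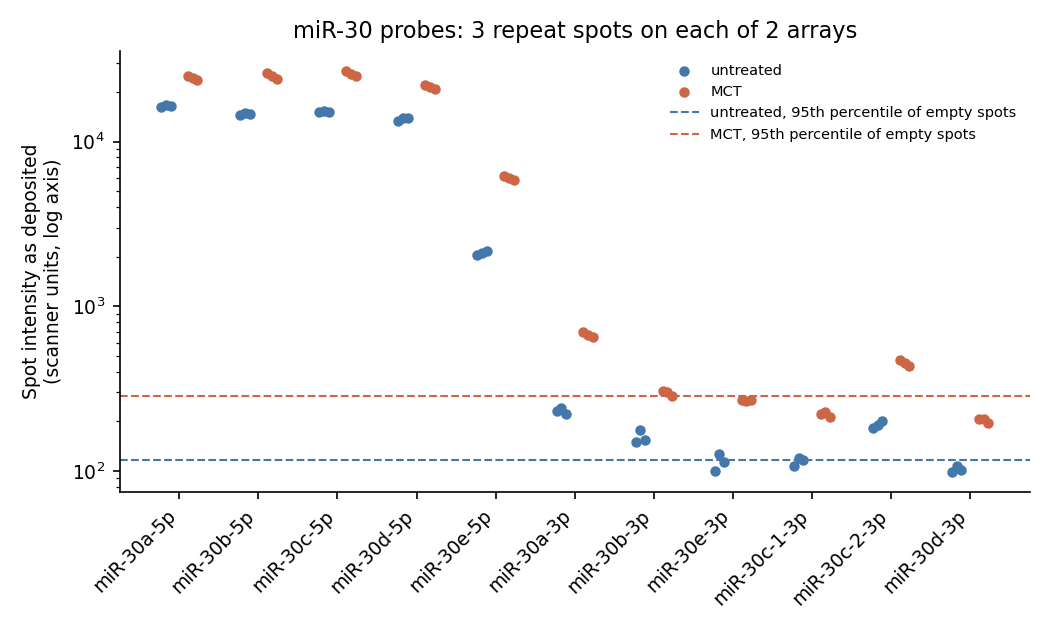
Deposited spot intensity (log axis, scanner units) of the 8 miR-30 probes and the other 3 family arms on the array; each point is 1 of 3 repeat spots, and dashed lines mark the 95th percentile of the empty spots, 116 for untreated and 284 for MCT. The 5p arms stand well above these lines on both arrays, whereas the spots of miR-30e-3p and miR-30d-3p lie at or below the line of the MCT array.

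Among the 3p arms, miR-30a-3p was above background on both arrays, with spots of 230, 242 and 221 in untreated and 696, 668 and 649 in MCT-treated lung. miR-30b-3p was barely so, with 149, 177 and 154 against 304, 303 and 286. miR-30e-3p, known in human glioma cells to repress the NF-κB inhibitor NFKBIA, read 99.3, 127 and 113 against 271, 264 and 268, and was detected on neither array, so no ratio is given for it. miR-30a-3p and miR-30e-3p, printed above, differ by 1 base, and the probe for miR-30e-3p read at the level of empty spots on the same arrays on which that for miR-30a-3p did not. With a limit taken from each array's dim microRNA spots in place of the empty ones (115 for untreated and 241 for MCT, chosen after the data were seen), miR-30e-3p counted as detected in the MCT sample.

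To set the arrays on 1 scale, intensities were background-corrected and quantile normalized, and ratios below are log2 of MCT over untreated. Of the 8 members 7 were detected, on both arrays in each case, and 0 of these 7 differed at least 2-fold or at least 1.5-fold. Over all microRNAs 6.36% of the 409 detected on at least 1 array differed at least 2-fold, 4.16% higher (17) and 2.2% lower (9), and 22% at least 1.5-fold. Ratios of the 5p arms were positive for 5 of 5, against 43.8% of all detected microRNAs; however, when the arrays were instead centred on the median of the probes detected on both, only that of miR-30e-5p stayed above 0, and when centred on the 75th percentile of all probes that of miR-30a-5p was -0.038. The median of the 5p arms was 0.31 ± 0.062, beside -0.044 over all detected microRNAs and 0.023 over the 310 detected on both arrays. Of the 409, 93 were detected on the untreated array alone and 6 on the MCT array alone. The 310 are the closer comparison, since the 5p arms were detected on both arrays.

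The largest of the 5p ratios was that of miR-30e-5p, whose normalized log2 level was 11.56 ± 0.040 without and 11.92 ± 0.068 with MCT, giving a ratio of 0.36 ± 0.079. miR-30c-5p had 14.16 ± 0.0087 and 14.49 ± 0.14, a ratio of 0.34 ± 0.14. miR-30b-5p had 14.09 ± 0.027 and 14.40 ± 0.10, a ratio of 0.31 ± 0.11. These differences are of about 1.24- to 1.28-fold, and all 3 exceeded the spread of the repeat spots. In lung tissue a higher level can come from more cells of a type or more RNA per cell, which cannot be told apart here.

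miR-30d-5p, studied in mouse pancreatic beta cells as a regulator of insulin expression, had 13.97 ± 0.039 and 14.12 ± 0.031, a ratio of 0.15 ± 0.050. miR-30a-5p had 14.26 ± 0.022 and 14.32 ± 0.055, a ratio of 0.051 ± 0.060 that is within the spread of its spots. After normalization the spots of the arrays did not overlap for 4 of the 5p arms, all higher in MCT, and overlapped for miR-30a-5p. Over the 409 microRNAs detected on at least 1 array, the spots did not overlap with MCT higher for 33%. That set takes in those detected on the untreated array alone. Ranked by ratio from the highest among the 310 microRNAs detected on both arrays, miR-30e-5p was number 69, miR-30c-5p 73, miR-30b-5p 83, miR-30d-5p 124 and miR-30a-5p 147. The quartiles of the 310 ratios were -0.28 and 0.32, so miR-30e-5p and miR-30c-5p lay just past the upper quartile. The 310 take in dimmer probes. Among those with a mean normalized level of at least 14.24, that of miR-30b-5p, the highest ratios were those of miR-30c-5p and miR-30b-5p. There miR-145-5p followed at 0.28.

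**Figure D2:**
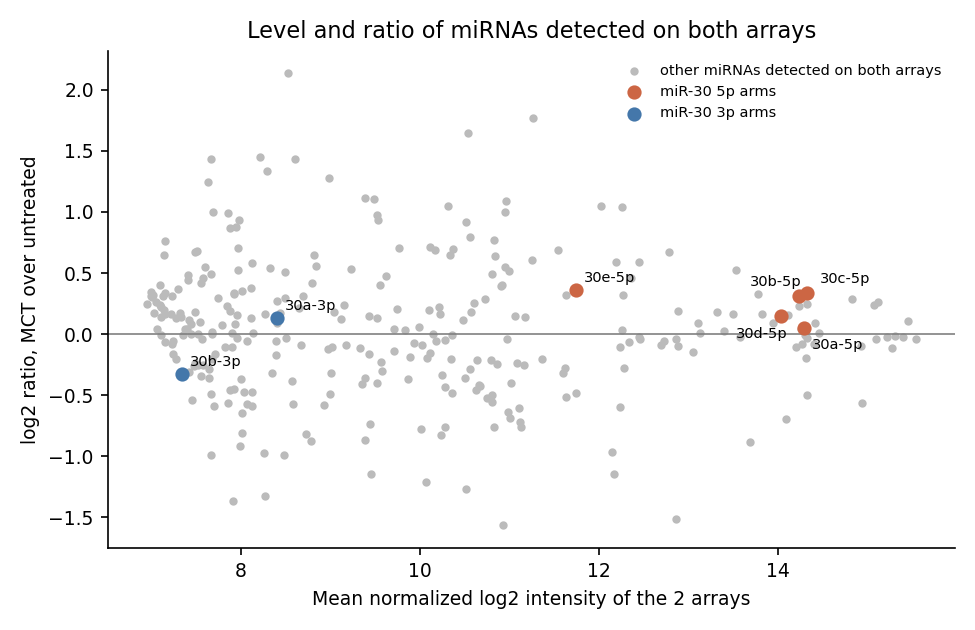
Log2 ratio of MCT over untreated against the mean normalized log2 intensity of both arrays for the 310 microRNAs detected on both (grey) with the miR-30 5p arms (orange) and 3p arms (blue). The 5p arms sit between 0.051 and 0.36 after quantile normalization, inside the range of the 310 microRNAs pooled over all brightnesses. At a mean level of 14.24 (that of miR-30b-5p) or higher, miR-30c-5p and miR-30b-5p had the highest ratios. When the arrays are centred on the median of the detected probes, 4 of 5 lie below 0.

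The paralogues that differ by 1 base did not have the same ratio. That of miR-30e-5p exceeded that of miR-30a-5p by 0.31 ± 0.099, and the sign of this difference held under all 16 alternative settings, between 0.28 and 0.94. The upper end came from the settings that move each whole array by a constant, which leave the dependence of the array difference on brightness in place, and the probes differed in brightness. A constant shift cannot change such a difference, so those settings all gave 0.94 and are not separate checks. miR-30d-5p, also 1 base from miR-30a-5p, exceeded it by 0.10 ± 0.078. miR-30b-5p and miR-30c-5p differed from each other by only 0.028 ± 0.18. Grouped by genomic neighbourhood, Mir30e and Mir30c-1 gave 0.36 and 0.34, Mir30b and Mir30d gave 0.31 and 0.15, and Mir30a gave 0.051 beside the 0.34 of miR-30c-5p, which Mir30c-2 can also produce.

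The share of the summed microRNA signal removes a constant factor between the arrays, but not a difference that changes with brightness. With the median of the empty spots subtracted, the 5 probes for 5p arms took 5.93% of the signal of all 1141 probes in untreated and 6.62% in MCT-treated lung. miR-30e-5p alone went from 0.193% to 0.375%, and the other 4 together from 5.73% to 6.25%. In the authors' processed table the 5p probes took 5.73% and 6.81%. The shares were higher in the MCT sample, and with 1 array a group they carry no replicate error. The array difference was larger for probes of the brightness of miR-30e-5p (median ratio 2.19) than for the brightest (1.41), so a probe of that brightness gains share in such a sum, and its normalized difference was 1.28-fold. Where a microRNA binds several family probes it is counted more than once in such sums.

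The 3p arms detected were of opposite sign. miR-30a-3p had a level of 8.33 ± 0.083 without and 8.47 ± 0.051 with MCT, so that its ratio was 0.13 ± 0.097, with overlapping spots. miR-30b-3p had 7.50 ± 0.24 and 7.17 ± 0.066, a ratio of -0.33 ± 0.25, with spots that did not overlap after normalization although its unscaled intensity was higher on the MCT array. Its sign depended on the scaling, at 0.29 without normalization, 0.076 when centred on the median of all probes and 0.074 with the 5S rRNA probes as the scale. The sign of miR-30a-3p turned to -0.026 when centred on the detected probes. Both 3p arms lie near background. With the median of each array's empty spots subtracted in place of normexp, the ratio of miR-30b-3p was -0.88 and that of miR-30a-3p 0.19, so miR-30b-3p moved by more than the spread of its spots and miR-30a-3p did not.

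Comparing the arms of a hairpin by their ratios leaves out the affinity of each probe only where the array difference does not change with brightness. Here it did, with a median unscaled ratio of 2.47 under 500 and 1.41 above 5000. The 3p probes of miR-30a and miR-30b belong to the dimmer of these classes and their 5p probes to the brighter. For miR-30a the ratio of the 3p arm minus that of the 5p arm was 0.079 ± 0.11, within the spread of the spots. For miR-30b it was -0.64 ± 0.27, with the 3p arm lower relative to the 5p arm in the MCT sample. That 3p arm was barely above background there, at 304, 303 and 286 against a limit of 284. The spread of repeat spots does not cover the choice of background correction. The sign for miR-30b held under all 16 alternatives (-1.19 to -0.47), as did that for miR-30a (0.034 to 0.81). Settings that differ only by a constant shift of each array cannot change such a difference. They all gave -0.47 for miR-30b and 0.81 for miR-30a and are not separate checks. Of 421 hairpins with a probe for each arm, 42 had both arms detected on both arrays, and their differences had a median of -0.10 and quartiles of -0.37 and 0.34. In that set miR-30a was number 24 from the lowest and miR-30b number 5, and 9 of the 42 differences, miR-30b included, were at least as large in size as that of miR-30b.

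**Figure D3:**
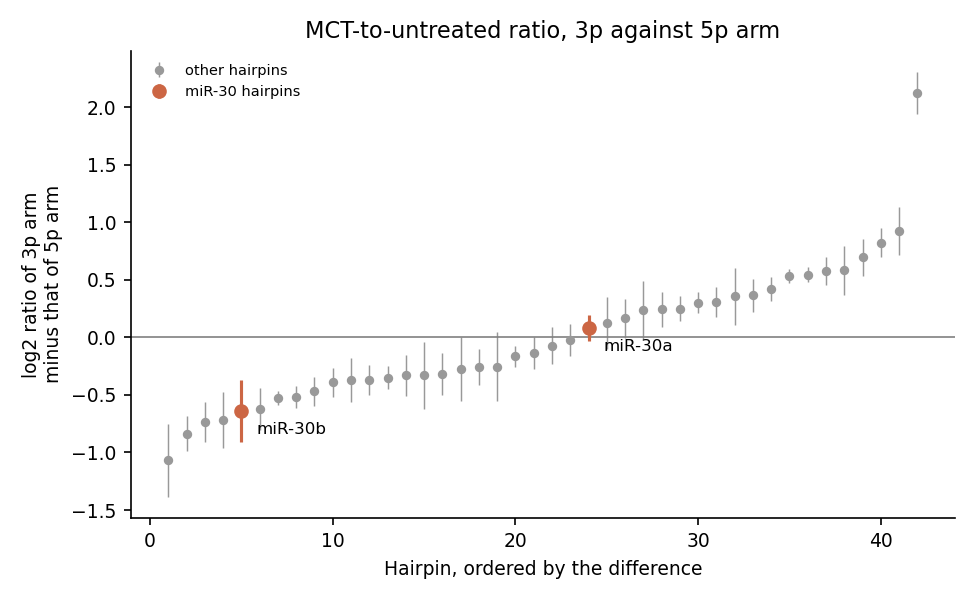
Log2 ratio of MCT over untreated of the 3p arm minus that of the 5p arm for the 42 hairpins with both arms detected on both arrays, in order of size; bars are SD over repeat spots. miR-30a lies in the middle at 0.079 and miR-30b near the low end at -0.64, with 4 hairpins lower.

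Further 3p arms of the family were on the array but are no members of the set above. miR-30c-2-3p was detected on both, with spots of 183, 191 and 201 in untreated and 471, 450 and 432 in MCT-treated lung and a ratio of -0.11 ± 0.13. Its ratio minus that of miR-30c-5p was -0.44 ± 0.20, and that 5p arm also comes from Mir30c-1. The arms differed in brightness here too. miR-30c-1-3p and miR-30d-3p were detected on neither array. Outside the family only miR-384-5p (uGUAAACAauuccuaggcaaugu), from the X chromosome, shares a seed with a member, that of the 5p arms. It was not detected, since its untreated spots read 402, 94.7 and 99.4 and its MCT spots 209, 213 and 203, and the first untreated spot stood apart from its repeats.

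The sign and size of the ratios depended on the scaling between the arrays, and among the 5p arms that of miR-30e-5p alone stayed above 0 under every setting run. Settings under which others fell below 0 shift each array by a constant. They leave the dependence of the array difference on brightness in place. In unscaled intensity miR-30e-5p belongs to the class with a median ratio of 2.19, and the other 5p arms to that with 1.41. Without normalization 2 members passed 2-fold, miR-30e-5p at 1.49 and miR-30a-3p at 1.36, both higher. They also did so when centred on the median of all probes (1.28 and 1.15) and with the 5S probes as the scale (1.28 and 1.14). After centring on the detected probes 1 member passed, miR-30b-3p at -1.10, lower. These scalings moved the median of all detected microRNAs by 0.75, 0.53, 0.53 and -0.64, and the counts of all microRNAs past 2-fold from 17 higher and 9 lower to 142 and 0, 97 and 0, 97 and 0, and 6 and 125. That median takes in 93 microRNAs detected on the untreated array alone. Relative to it the 5p median was higher by 0.35 as reported, but by only 0.060 under settings that shift each array by a constant. Under those settings 3 of the 5p arms were above it, and miR-30a-5p and miR-30d-5p were below. Over the 310 detected on both arrays the median as reported was 0.023, beside the 5p median of 0.31.

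**Figure D4:**
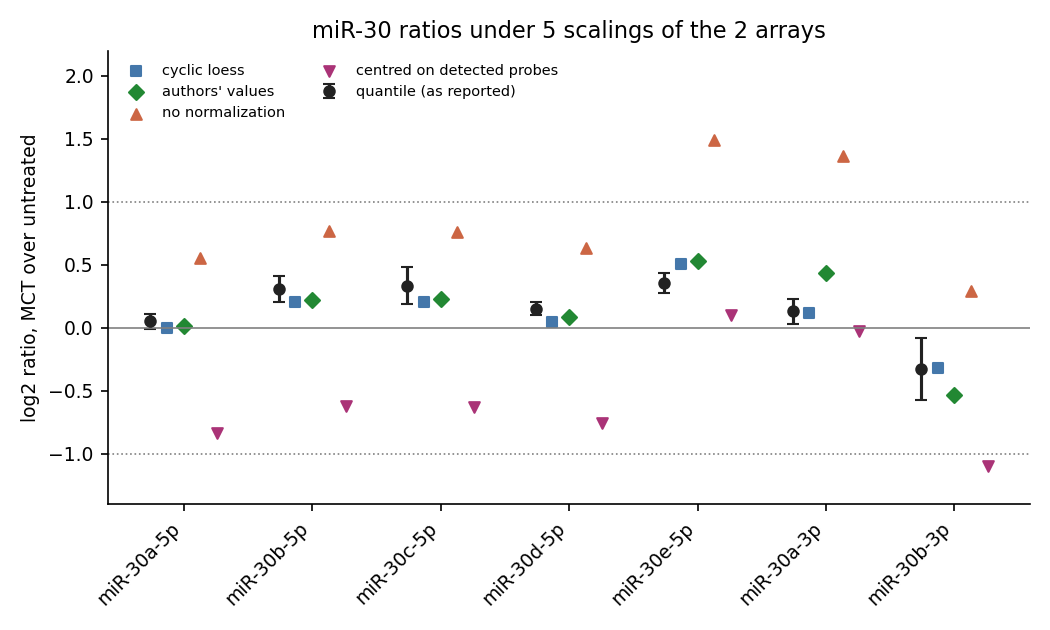
Log2 ratio of MCT over untreated of the 7 detected miR-30 members under quantile normalization (black, bars are SD over repeat spots) and 4 other treatments of the scale; dotted lines mark 2-fold. All 7 lie above 0 without normalization, and all but miR-30e-5p lie below 0 when centred on the probes detected on both arrays. The order of miR-30e-5p above miR-30a-5p is the same in each, and a constant shift of an array cannot change it.

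In the authors' processed table, which removes background and scales the arrays in a way the sources used here do not state, the 5p arms had values of 19777 and 19983 for miR-30a-5p, 17604 and 20578 for miR-30b-5p and 18187 and 21287 for miR-30c-5p in untreated and MCT-treated lung. miR-30d-5p had 16506 and 17522, and miR-30e-5p 2836 and 4130. The 5 were higher in the MCT sample by between 1.01 times for miR-30a-5p and 1.46 times for miR-30e-5p, and the order of these endpoints is that of the ratios above. miR-30a-3p had 209 and 299 there, and miR-30b-3p 101 and 54.5.

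The 5 microRNAs outside the family whose pair of levels lay nearest to the mean of the 5p arms (13.61 in untreated and 13.85 in MCT) over these 2 samples were miR-143-3p, miR-181a-5p, miR-195-5p, miR-150-5p and miR-690. Their Euclidean distances were 0.091, 0.14, 0.28, 0.32 and 0.33 log2 units. miR-143-3p, a smooth muscle microRNA, had a ratio of 0.33 ± 0.41, and miR-181a-5p had 0.17 ± 0.034. Likeness over 2 arrays rests on brightness and 1 difference only, and the mean takes in the dimmer miR-30e-5p.

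Like miR-30, the miR-200 and miR-29 families are known to restrain epithelial-mesenchymal transition or matrix genes. Of 12 such microRNAs, which also included miR-203-3p, miR-205-5p, miR-26a-5p and let-7d-5p, 11 were detected, 0 passed 2-fold in either direction, 7 of the 11 ratios were above 0 and the median was 0.27, beside the 0.31 of the miR-30 5p arms. The largest ratios were 0.77 ± 0.017 for miR-429-3p, 0.69 ± 0.11 for the collagen-repressing miR-29c-3p, 0.61 ± 0.14 for miR-141-3p and 0.51 ± 0.089 for the epithelial miR-200a-3p. miR-141-3p was not above the empty spots in untreated lung, so its ratio is not a measured fold. The ratios below 0 were -0.49 ± 0.098 for miR-203-3p, -0.20 ± 0.049 for miR-29a-3p, -0.039 ± 0.060 for miR-200c-3p and -0.022 ± 0.11 for let-7d-5p. Of the cell type markers, 6 epithelial microRNAs had a median ratio of 0.49, 2 smooth muscle ones of 0.31 and 2 endothelial ones of -0.20. The epithelial ones include miR-200 family members of the list above, among them miR-141-3p. The endothelial miR-126-5p was not detected in the MCT sample. The myeloid miR-223-3p, at -1.21 ± 0.21, was the only marker past 2-fold, and miR-142-3p was detected on neither array. Of the erythroid markers miR-451 had -0.038 ± 0.035 and miR-144-3p was not detected. The part of these markers in the miR-30 ratios was not tested. The same scaling limits apply to these ratios.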

How the data were processed

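Per the labels' protocols, total RNA (2 µg per sample) was poly(A)-tailed, tagged and stained with Cy3 on a microfluidic chip run by a commercial laboratory. Deposited scanner tables hold a median pixel intensity for every spot, with no background subtracted. The authors' processed intensity, from the deposited series table, served as an alternative. Spot intensities were corrected with normexp (offset of 50, all spots) in limma 3.58.1 under R 4.3.3; control spots were left out; log2 values were then quantile normalized over microRNA spots, and the 3 spots of a probe averaged. Quantile normalization and the offset shrink ratios of the brightest and the dimmest probes. A call needed detection on either array, a log2 ratio of at least 1 in size and repeat spots that did not overlap. The steps were tested on simulated arrays that differed in background and by a constant factor, with changes planted in probes of middle brightness. Changes in the brightest and dimmest probes, and a signal factor that varies with brightness, were not simulated. Named were the members, other miR-30 arms, microRNAs sharing a seed, the 5 nearest in level and a list of 12 related microRNAs; members and lists were chosen with earlier results of these data known. Alternatives changed the background, offset, scaling, spot summary, detection, threshold and GC trend (lowess, statsmodels 0.14.6). Other steps used Python 3.11.15. Depth has no meaning for arrays; their number, 1 per group, limits the precision.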

Additional observations from a re-analysis of the deposited data

How the results depend on the processing

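No paired analysis was possible because each group has 1 array. The median log2 ratio of the miR-30 5p arms, 0.31, was 0.76 without normalization, 0.55 centred on the median of all probes, 0.54 scaled by the 5S probes, 0.22 with the authors' values, 0.20 with cyclic loess, 0.17 centred on the 75th percentile and -0.63 centred on the detected probes. It moved by less than the spread of the repeat spots under the other 9 of 16 alternatives. The median of the detected 3p arms, -0.099, was 0.83, 0.61, 0.61, 0.23 and -0.56 under no normalization, the median of all probes, the 5S probes, the 75th percentile and the detected probes, -0.35 with the empty spots' median subtracted and 0.13 with the limit from dim microRNA spots, which adds miR-30e-3p. Leaving out each repeat spot in turn gave 0.25 to 0.36 for the 5p and -0.17 to -0.018 for the 3p median, with 0 members past 2-fold. Members past 2-fold numbered 2 without normalization, 2 on the median of all probes, 2 on the 5S probes and 1 on the detected probes. Over all microRNAs, calls were 17 higher and 9 lower as reported, 49 and 8 on the 75th percentile, 46 and 38 with the empty spots subtracted and 23 and 19 with an offset of 16. Background on the MCT array limits the 3p arms.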

Other observations

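Repeat spots of the miR-30 probes lie in chip columns 6, 16 and 26. On the MCT array the intensity at column 26 was below that at column 6 for 5 of 5 probes for 5p arms, and on the untreated array for 0 of 5. Over the 310 microRNAs detected on both arrays it was lower at the third spot than at the first for 163 on the MCT and 62 on the untreated array. The first untreated spot of miR-30d-5p had a pixel standard deviation of 1425, against 174 and 164 for its repeats, at a similar median intensity. Near the probes, in chip rows 30 to 50, 28 empty spots had medians of 106 in the untreated and 250.5 in the MCT sample.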
